A study of Mus musculus with 2 samples.

Results

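The matrix proteases and their inhibitors examined here are 9 genes, taken by name from the 32285 genes of the files: the metalloproteinases Mmp8, Mmp9, Mmp12, Mmp13 and Mmp14, the inhibitors Timp1 and Timp2, and the urokinase gene Plau with its receptor gene Plaur. They were counted in single-cell RNA-seq of tumours of MC38, a line derived from a mouse colon carcinoma. The study has 1 labelled group, tumours on day 21, with 2 replicate libraries of immune cells sorted by flow cytometry and made with a droplet 3′ kit. The labels give no treatment, genotype, strain, age or second group, so each comparison sets one class of cells against another within the libraries.

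Matrix metalloproteinases are zinc enzymes made as inactive precursors. Most are secreted, while the Mmp14 product sits in the membrane and activates the Mmp2 precursor together with the Timp2 protein. Timp proteins block the active enzymes, and urokinase, held at the cell surface by the Plaur product, turns plasminogen into plasmin, which in turn can activate metalloproteinases. In tumours both the malignant or stromal cells and the infiltrating myeloid cells can make these enzymes, and which cells hold their RNA is the question addressed.

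Replicate 1 held 5688000 UMIs (counted RNA molecules) in 2749 barcodes and replicate 2 held 5862342 in 2937, and the libraries shared 0 barcodes. After filtering, 2378 and 2801 cells were kept, with a median of 1488.5 and 1381 UMIs. Replicate 1 held 1790 UMIs of Xist and 0 of Y-linked genes, and replicate 2 held 0 and 379, so the libraries came from different animals. Ptprc-negative barcodes, with 0 UMIs of the leukocyte genes Ptprc and Tyrobp and outside every leukocyte cluster, numbered 627 in replicate 1 and 960 in replicate 2. C1q macrophages, the clusters rich in the complement genes C1qa, C1qb and C1qc, numbered 816 and 888. In replicate 1, 663 of these lay in a cluster led by Lyz2, Apoe and Trem2, while in replicate 2, 834 lay in one led by Il1b and Cxcl9, which has 0 of the listed macrophage markers and 1 monocyte marker among its top 10 genes and is counted as macrophage by its C1q level alone. A library difference within the macrophages can therefore not be told apart from a difference between these clusters.

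The Ptprc-negative barcodes are called by their rule, because the markers did not bear out an epithelial tumour name. Epcam, Krt8, Krt18, Krt19, Krt7 and Cldn7 together had 0 UMIs in replicate 1 and 4 in replicate 2. The 7 fibroblast markers had summed levels of 1433 and 2392 CPM (the UMIs of a gene scaled by all UMIs of the class), against 56.5 and 36.9 CPM in C1q macrophages, and the 10 macrophage markers had 238 and 111 CPM, against 30813 and 13121 CPM. The part of fibroblast content in the results below was not tested, apart from the values given without the fibroblast-like cluster. The clusters of Ptprc-negative barcodes also split by library. In replicate 1, 547 barcodes lay in a cluster led by Dcn and Rhox5 and 77 in one led by histone genes, and in replicate 2, 726 lay in a cluster led by Crabp1 and Lgals7, 196 in one led by Mgp and Spp1 and 35 in a fibroblast-like one led by Col1a1.

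The members divided between the Ptprc-negative barcodes and the macrophages. Timp2 and Timp1 were higher in Ptprc-negative barcodes, and so was Mmp9, though its difference rests on replicate 1. Mmp12, Mmp13, Mmp8, Plau and Plaur were higher in C1q macrophages. Mmp14 was not called in either direction. Of the 7 members that passed the filter on low counts, 2 were higher and 4 were lower in Ptprc-negative barcodes (edgeR's quasi-likelihood test, adjusted p under 0.05). Over all 4180 genes tested, 23.8% were called higher and 28.9% lower, 52.7% in all, so a call in this comparison is common for any gene. The median log2 fold change of those 7 was -1.41, against 0.033 over all genes tested. Timp1 and Plau did not pass that filter, and their values come from an unfiltered fit, in which 26.1% of 16685 genes were called, 15.5% higher and 10.6% lower. The p-values of that fit use a spread shared over genes, so a gene's own spread between libraries does not enter them.

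**Figure D1:**
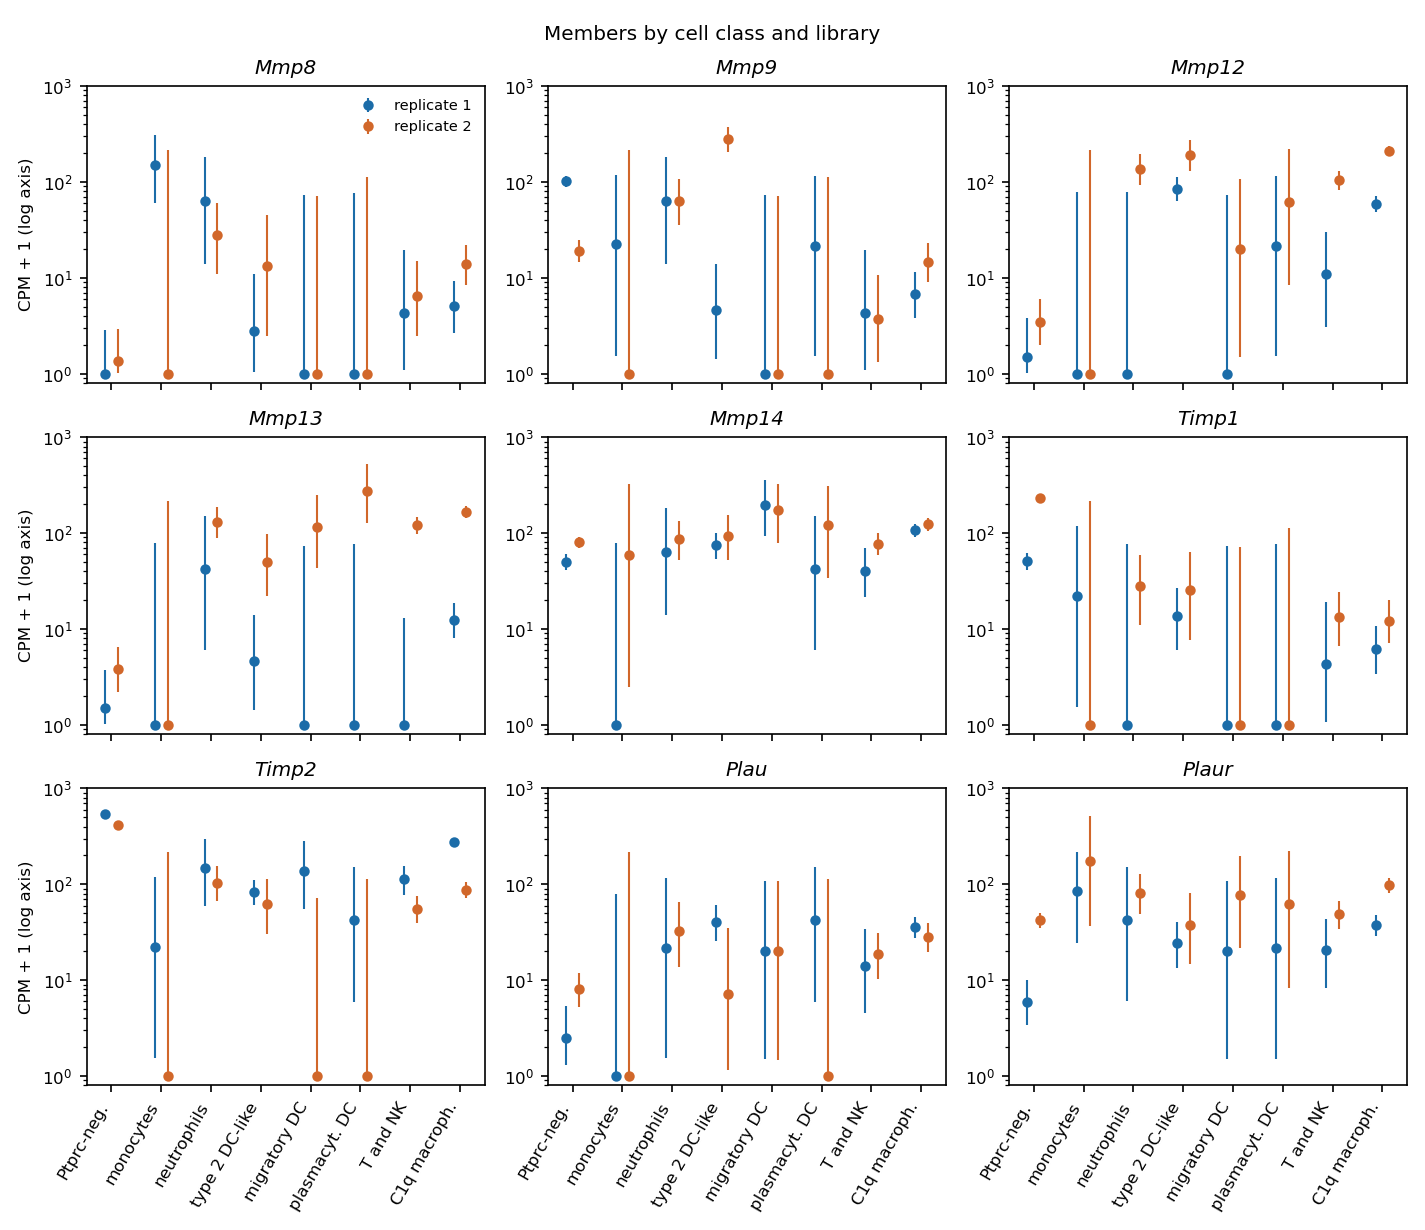
CPM + 1 (log axis) of each member in 8 cell classes, 1 point per library (blue, replicate 1; orange, replicate 2) with exact 95% Poisson intervals that cover counting error only. Timp1 and Timp2 stand highest in the Ptprc-negative barcodes of both libraries (49.7 and 231.7 CPM of Timp1), and Mmp12 and Mmp13 lie under 3 CPM there.

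**Figure D2:**
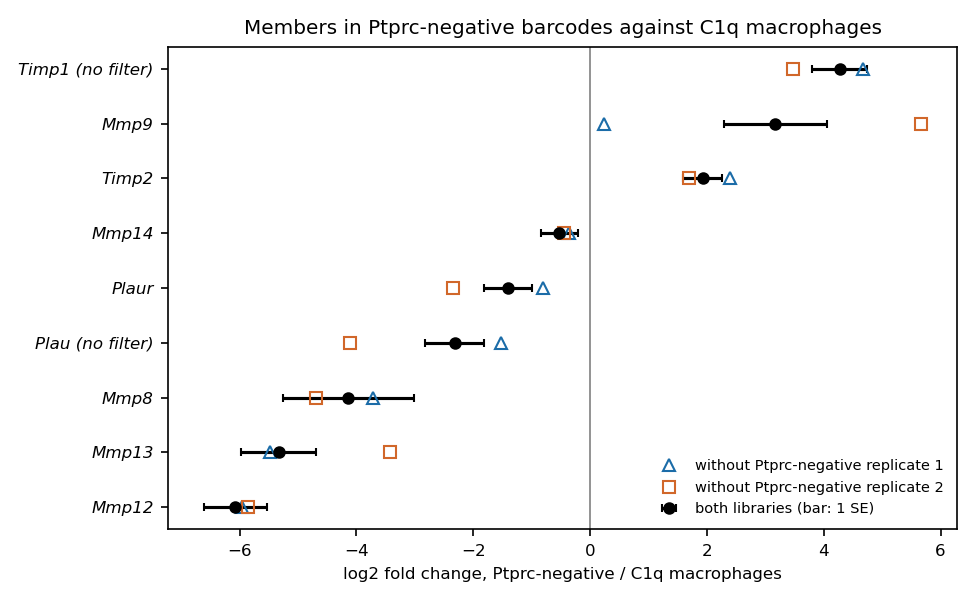
Log2 fold change of each member, Ptprc-negative barcodes over C1q macrophages (x axis), with 1 SE over both libraries (black), and after leaving out the Ptprc-negative sum of replicate 1 (triangles) or replicate 2 (squares). Without replicate 1 the value of Mmp9 is 0.24, against 3.17 with both libraries.

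Timp2, which encodes a secreted inhibitor, had 544 CPM in replicate 1 and 412 CPM in replicate 2 in Ptprc-negative barcodes, against 278 and 86.6 CPM in C1q macrophages. Both Ptprc-negative values lay above both macrophage values, and the counting intervals did not overlap within either library. On the log2 scale the difference was 1.93 (SE 0.33, edgeR adjusted p = 1.54e-05). Within replicate 1 the Ptprc-negative level was 1.96 times the macrophage level (95% counting interval 1.76 to 2.18), and within replicate 2 it was 4.76 times (3.91 to 5.85), so the size of the difference depended on the library. A Timp2 UMI was seen in 64.6% and 57.9% of Ptprc-negative barcodes, against 33.7% and 10.2% of macrophages and 18.7% and 7.97% of T and NK cells. In T and NK cells Timp2 stood at 26.6 and 12.3 UMIs per 1000 UMIs of C1qa, C1qb and C1qc, against 27.1 and 12.2 in macrophages. Ptprc-negative barcodes held 58.2% and 79.6% of all Timp2 UMIs, and whether T and NK cells express Timp2 was not tested. The Timp2 gene lies at chr11:118301069-118355740 on the minus strand (mm10) and overlaps Cep295nl on the same strand, so reads in the shared stretch cannot be assigned with certainty.

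Timp1, an inhibitor gene that many cells induce on stimulation, had 49.7 and 231.7 CPM in Ptprc-negative barcodes, against 5.19 and 11.2 CPM in macrophages. The libraries did not overlap between the classes, and the Ptprc-negative level was higher in replicate 2. The difference amounted to 4.27 on the log2 scale (SE 0.47, edgeR with no filter, adjusted p = 8.63e-18). The ratio to macrophages was 9.58 in replicate 1 and 20.6 in replicate 2, with overlapping intervals (4.85 to 21.6 and 12.2 to 38.0). The gene lies at chrX:20870166-20874735 (mm10), and Syn1 overlaps it on the other strand. Of all Timp1 UMIs in kept cells, 71.4% and 87.2% lay in Ptprc-negative barcodes, which held 37.3% and 50.7% of all UMIs.

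Mmp9 encodes gelatinase B, known in mice from neutrophil granules, osteoclasts and tumour stroma. Ptprc-negative barcodes had 100 CPM (201 UMIs) in replicate 1 and 18.2 CPM (52 UMIs) in replicate 2, against 5.76 and 13.6 CPM in macrophages. The class intervals were apart in replicate 1 and overlapped in replicate 2, so the difference rests on replicate 1. With both libraries the log2 fold change was 3.17 (SE 0.88, edgeR adjusted p = 0.00352). Without the Ptprc-negative sum of replicate 1 it was 0.24 (adjusted p = 0.743), without that of replicate 2 it was 5.67, and DESeq2 gave 3.10 (adjusted p = 0.0581). A fit of these 2 classes alone gave 2.35 (adjusted p = 0.0826). Over the alternatives tested, the adjusted p ran from 2.59e-34 to 0.743.

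Mmp12, the macrophage elastase gene, had 1 UMI (0.497 CPM) in replicate 1 and 7 UMIs (2.45 CPM) in replicate 2 in Ptprc-negative barcodes, against 101 and 263 UMIs (58.2 and 211 CPM) in macrophages. No library of one class overlapped a library of the other. On the log2 scale Ptprc-negative barcodes stood at -6.07 relative to macrophages (SE 0.54, adjusted p by edgeR = 1.16e-10). With the gate of 0 Ptprc and 0 Tyrobp UMIs alone, which also takes barcodes of leukocyte clusters, it was -3.42 (adjusted p = 9.5e-09), the smallest size in a range of -6.42 to -3.42 over the alternatives tested (adjusted p 2.25e-34 to 0.000181). In replicate 1 the Ptprc-negative level was 0.00854 times the macrophage level (95% counting interval 0.000214 to 0.0487). Leukocyte clusters held 99.4% and 97.6% of all Mmp12 UMIs.

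Mmp13 encodes collagenase 3, the main interstitial collagenase of mice. It had 1 UMI (0.497 CPM) and 8 UMIs (2.80 CPM) in Ptprc-negative barcodes, against 20 and 205 UMIs (11.5 and 164 CPM) in macrophages. Both classes had more in replicate 2, and both Ptprc-negative values lay below both macrophage values. The log2 fold change was -5.33 (SE 0.64, edgeR adjusted p = 4.56e-08), and it was -3.43 (adjusted p = 0.00154) without the Ptprc-negative sum of replicate 2, in a range of 4.14e-28 to 0.00619 over the alternatives tested. Within the macrophages the level in replicate 2 was far above that in replicate 1, where the counting intervals were 143 to 188 CPM and 7.04 to 17.8 CPM.

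Mmp8, the neutrophil collagenase gene, had 0 and 1 UMI in Ptprc-negative barcodes, against 7 and 16 UMIs in macrophages. In replicate 1 the macrophage level was 4.04 CPM (95% counting interval 1.62 to 8.31), and the count of 0 in Ptprc-negative barcodes allows up to 1.83 CPM, so the intervals overlapped there. The upper counting limit of the ratio in replicate 1 was 0.599. In replicate 2 the ratio of Ptprc-negative barcodes to macrophages was 0.0273 (95% counting interval 0.000652 to 0.176). The fitted log2 fold change was -4.14 (SE 1.12, edgeR adjusted p = 0.00292), and it was -2.79 (adjusted p = 0.157) without the macrophage sum of replicate 2, in a range of 0.000306 to 0.157 over the alternatives tested. Mmp8 rests on 49 UMIs in all kept cells. T and NK cells had 3.28 and 5.43 CPM of it, against 4.04 and 12.8 CPM in macrophages and 62.2 and 26.9 CPM in neutrophils. Whether macrophages express Mmp8 was therefore not settled by these low levels.

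Plau and Plaur, the urokinase gene and the gene of its anchored receptor, were both lower in Ptprc-negative barcodes. Plau had 1.49 and 7.01 CPM there, against 34.6 and 27.3 CPM in macrophages. The libraries did not overlap between the classes, and the log2 fold change was -2.32 (SE 0.50, edgeR with no filter, adjusted p = 4.23e-05). It was -4.12 without the Ptprc-negative sum of replicate 2, -1.53 without that of replicate 1 and -1.47 with the gate alone (adjusted p 1.15e-08 to 0.0109 over the alternatives tested). The ratio to macrophages was 0.0431 in replicate 1 and 0.257 in replicate 2, with counting intervals apart (0.00865 to 0.132 and 0.140 to 0.460). Plaur had 4.97 and 41.0 CPM in Ptprc-negative barcodes, against 36.3 and 96.2 CPM in macrophages. The value of Ptprc-negative replicate 2 lay above that of macrophage replicate 1, although within each library the Ptprc-negative level was lower. The log2 fold change was -1.41 (SE 0.41, edgeR adjusted p = 0.00454), and the ratio was 0.137 in replicate 1 and 0.426 in replicate 2. The call was lost without the replicate block (-1.23, adjusted p = 0.105) and without the macrophage sum of replicate 2 (-1.35, adjusted p = 0.103). The value was -0.81 without the Ptprc-negative sum of replicate 1 and -2.35 without that of replicate 2, and the adjusted p had a range of 4.18e-05 to 0.105 over the alternatives tested.

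Mmp14, the membrane-type enzyme gene, had 49.2 and 78.9 CPM in Ptprc-negative barcodes, against 105 and 123 CPM in macrophages. Both Ptprc-negative values lay below both macrophage values, but the difference did not pass the test (log2 fold change -0.53, SE 0.31, edgeR adjusted p = 0.161). With cells of at least 500 genes and under 5% mitochondrial UMIs it did pass, at -0.90 (adjusted p = 0.0394, in a range of 0.0394 to 0.62 over the alternatives tested). Mmp14 UMIs were spread over many classes, with 26.3% and 45.1% of them in Ptprc-negative barcodes and 48.7% and 30.7% in macrophages. Relative to C1q RNA, Mmp14 had 9.40 and 17.2 UMIs per 1000 in T and NK cells and 8.65 and 15.9 in neutrophils, against 10.3 and 17.3 in macrophages. The levels in T and NK cells and neutrophils thus stood near the macrophages' own ratio, and whether those cells express Mmp14 was not tested.

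**Figure D3:**
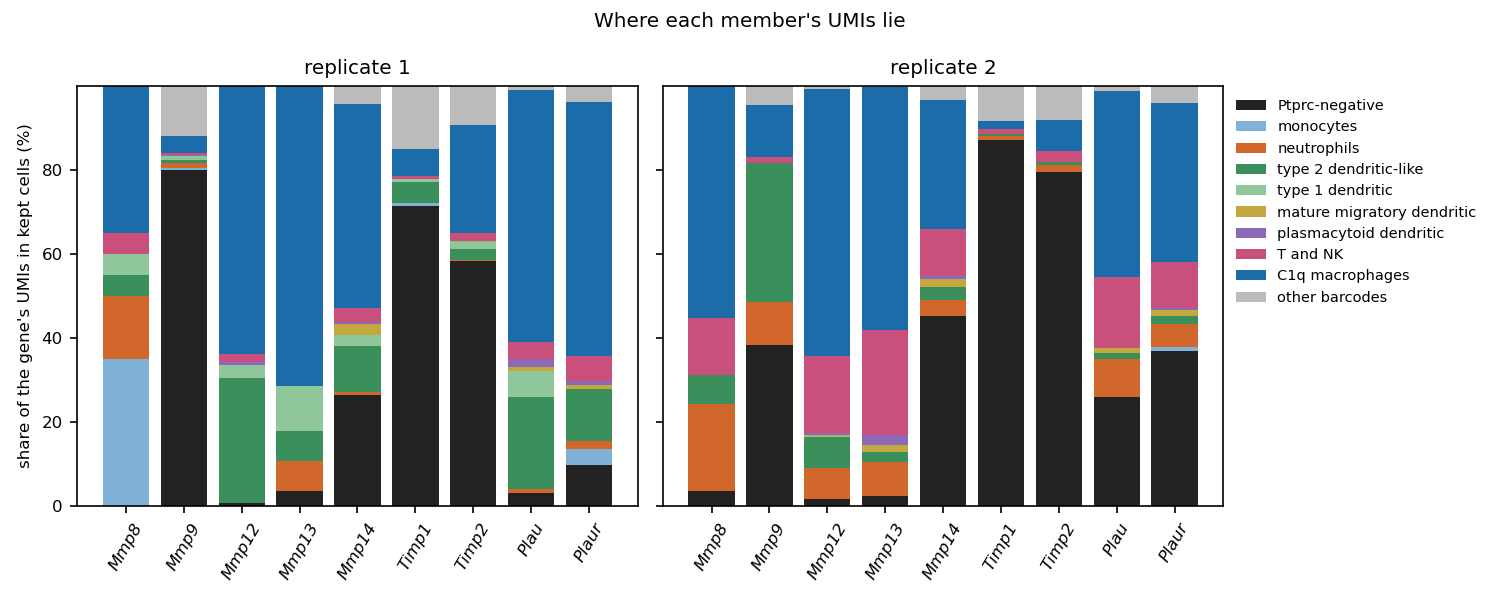
Share (%) of each member's UMIs in kept cells by class, in replicate 1 (left) and replicate 2 (right). Ptprc-negative barcodes (black) hold 58.2% and 79.6% of Timp2 and 0.633% and 1.69% of Mmp12. The shares depend on the number and depth of the cells of each class.

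Mmp12, Mmp13 and Plaur are shown with the stretch before their start sites, because these members of the macrophage side hold the motif TGANTCA, the binding sequence of the AP-1 factors, in the 300 bases searched (250 before the start to 50 after it; the motif reads the same on both strands). Promoters of 7 of the 9 members were matched in the RefSeq table for GRCm38 (mm10), and Mmp9 and Plau are named only. The motif was found at 1 of the 2 starts of Mmp12 and at the single starts of Mmp13 and Plaur, and at none of Mmp8, Mmp14, Timp1 and Timp2. Of all 32851 promoter windows of that length, 7.81% hold it. A match describes the letters and not a bound site. The capitals mark the motif, and all 3 stretches of 100 bases lie on the plus strand and end at the base before the start.
Mmp12, second start, chr9:7347274-7347373: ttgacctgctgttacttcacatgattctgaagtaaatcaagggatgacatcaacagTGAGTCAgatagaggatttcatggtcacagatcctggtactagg
Mmp13, chr9:7272414-7272513: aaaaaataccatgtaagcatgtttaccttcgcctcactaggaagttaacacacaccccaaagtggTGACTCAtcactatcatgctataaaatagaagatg
Plaur, chr7:24462383-24462482: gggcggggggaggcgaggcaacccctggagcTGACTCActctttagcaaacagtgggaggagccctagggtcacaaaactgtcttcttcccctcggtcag
The motif starts 44 bases before the start of Mmp12, 35 before that of Mmp13 and 69 before that of Plaur.

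Mmp12, Mmp13 and Mmp8 also lie together on chromosome 9, where the annotation places 9 protein-coding Mmp genes within 427 kb. Mmp13 spans chr9:7272514-7283331, Mmp12 spans chr9:7344381-7369499 and Mmp8 spans chr9:7558456-7568485, all on the plus strand (mm10). Mmp1b overlaps the end of Mmp12 on the other strand and had 0 UMIs. Neighbours did not share 1 pattern. Mmp3, the stromelysin 1 gene between Mmp12 and Mmp8, had 2 and 105 UMIs, of which 0 and 3 lay in leukocyte clusters. Mmp10 had 0 and 3 UMIs, Mmp27 had 0 and 1, and Mmp20 and Mmp7 had 0 in both libraries.

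The Ptprc-negative barcodes were not uniform in these genes. Timp1 reached 1930 CPM in the 35 fibroblast-like barcodes of replicate 2, against 202 CPM in the Crabp1 cluster and 226 CPM in the Mgp cluster of the same library. In replicate 1 it had 52.1 CPM in the Dcn cluster and 36.8 CPM in the histone cluster. Without the fibroblast-like cluster, the log2 fold change of Timp1 against macrophages was 4.17 (edgeR with no filter, adjusted p = 5.68e-17, in a range of 7.6e-27 to 2.3e-06 over the alternatives tested).

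Mmp14 within the Ptprc-negative barcodes had 155 CPM in the Mgp cluster and 214.5 CPM in the fibroblast-like one, against 59.7 CPM in the Crabp1 cluster of replicate 2. The interval of the Mgp cluster, 122 to 194 CPM, lay above that of the Crabp1 cluster, 50.1 to 70.5 CPM. Mmp9 had 103 and 83.5 CPM in the Dcn and histone clusters of replicate 1, against 16.9 and 24.2 CPM in the Crabp1 and Mgp clusters of replicate 2. Plaur ran the other way, with 5.27 and 3.34 CPM in the clusters of replicate 1 and 42.4 and 36.3 CPM in those of replicate 2. The values of Mmp9 and Plaur thus followed the library in these 4 clusters, and cluster and library cannot be told apart.

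**Figure D4:**
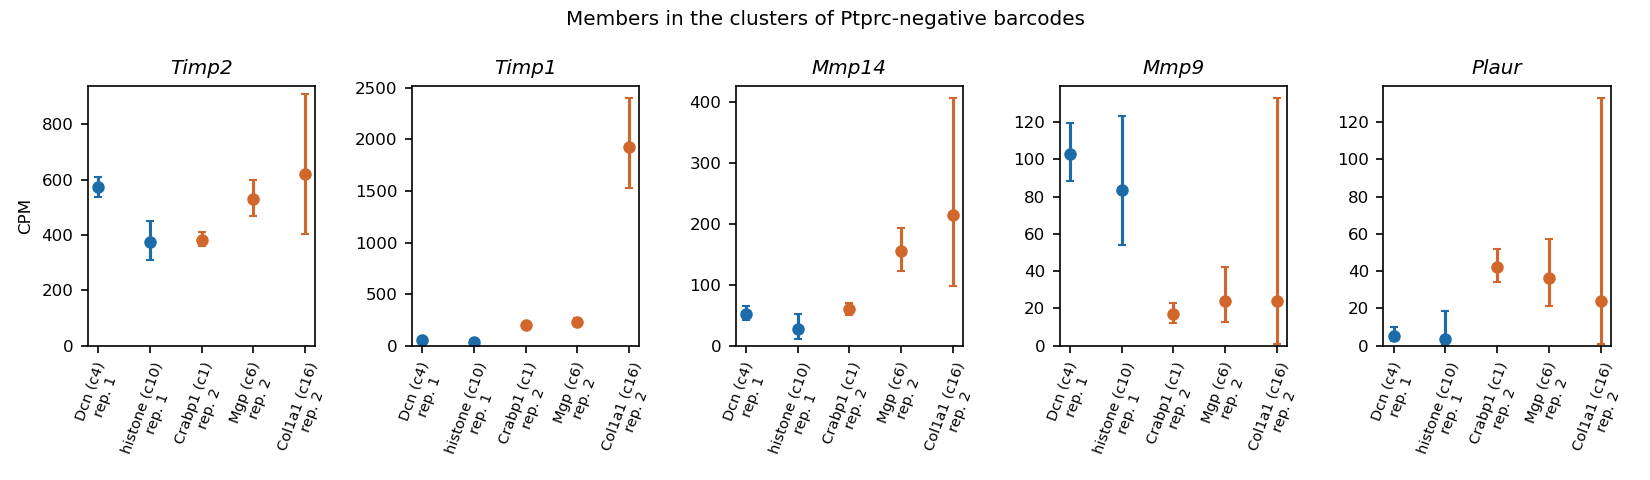
CPM of 5 members in the clusters of Ptprc-negative barcodes (blue, replicate 1; orange, replicate 2), with exact 95% Poisson intervals and an axis of its own for each gene. Timp1 stands at 1930 CPM in the Col1a1 cluster, and Mmp9 is high in both clusters of replicate 1.

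Cycling state, taken as 2 or more UMIs of Top2a, Mki67, Stmn1 and Ube2c, went with smaller differences. Timp2 had 419 and 387 CPM in cycling Ptprc-negative barcodes, against 633 and 438 CPM in the others. Mmp14 had 37.9 and 55.2 CPM in cycling ones, against 57.4 and 103 CPM in the others. Both genes had lower CPM in the cycling barcodes of each library, with intervals apart in replicate 1 for Timp2 and in replicate 2 for Mmp14. The share of barcodes with a UMI ran the other way. It was 71.5% and 70.6% against 62.4% and 51.8% for Timp2, and 16.6% and 17.1% against 10.5% and 16.8% for Mmp14. Cycling barcodes were deeper, with 844127 UMIs in 151 against 1166726 in 476 in replicate 1, and 1449951 in 310 against 1402870 in 650 in replicate 2. Timp1 and Mmp9 also had lower CPM in the cycling barcodes of each library, with overlapping intervals. Plau and Plaur were higher in those of replicate 1, from few UMIs. The clusters were pooled here, so cycling state and cluster were not separated, and these differences were not tested.

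Among the macrophages, Timp2 was higher in barcodes with a Trem2, Fcrls or Stab1 UMI and none of Il1b, Ly6i or Clec4n than in the opposite gate. It had 282 and 166 CPM in the Trem2 gate, against 131 and 50.1 CPM in the Il1b gate. The intervals were apart in replicate 2 and overlapped in replicate 1, where the Il1b gate held 26 barcodes and 5 Timp2 UMIs. Macrophages with UMIs of both gene sets had 308 and 145 CPM of Timp2, near the Trem2 gate. Those with neither had 222 and 89.2 CPM. Mmp12 had 47.5 and 429 CPM in the Trem2 gate, against 0 UMIs in those 26 barcodes and 188 CPM in the Il1b gate of replicate 2. Mmp13 had 14.3 and 138 CPM in the Trem2 gate, against 0 UMIs and 179 CPM in the Il1b gate. In replicate 2 both gates thus held both enzymes, although 1 of the 53 Trem2-gate barcodes held 12 of its 31 Mmp12 UMIs.

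The macrophage cluster led by interferon-induced genes had higher CPM of both enzymes than the largest macrophage cluster of the same library. Mmp12 had 254 CPM in its 42 barcodes of replicate 1 and 1011 CPM in its 10 of replicate 2, against 49.5 CPM in the Trem2 cluster of replicate 1 and 206.5 CPM in the Il1b cluster of replicate 2. Mmp13 had 87.9 and 1167 CPM there, against 6.88 and 155.5 CPM. These values rest on few barcodes, since 1 barcode held 12 of the 13 Mmp12 UMIs in replicate 2. The difference was not tested.

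Other myeloid classes held members as well. Of the 7 members that passed the filter, edgeR called 0 in neutrophils, monocytes, type 2 dendritic-like, mature migratory dendritic and plasmacytoid dendritic cells against C1q macrophages, and DESeq2 called 0 of those for which it gave an adjusted p. Among all genes tested, 0.287% were called in neutrophils, 1.24% in monocytes (0.359% higher and 0.885% lower), 0.0478% in type 2 dendritic-like, 0.526% in mature migratory and 1.22% in plasmacytoid dendritic cells (0.885% higher and 0.335% lower). At an unadjusted p under 0.05 there were 2 members in neutrophils, 5 in monocytes, 3 in type 2 dendritic-like, 2 in mature migratory and 2 in plasmacytoid dendritic cells. Over all genes tested, 3.47%, 12.2%, 3.95%, 6.87% and 10.7% were under that p in these classes, in the same order. Under some alternatives Timp2 was called lower in monocytes (adjusted p 0.0106 to 0.462 over the alternatives tested by edgeR or DESeq2) and in plasmacytoid dendritic cells (0.000323 to 0.525). Mmp12 was called lower under 1 of 6 alternatives in monocytes (0.0397 to 0.462) and under 4 of 8 in mature migratory dendritic cells (0.00344 to 0.747). A class that misses the threshold is not shown to be like macrophages.

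Neutrophils, named from S100a8, S100a9 and Retnlg, numbered 28 and 166. The 7 neutrophil markers summed to 35539 and 7799 CPM in this class, against 108 and 165 CPM in macrophages. The 10 macrophage markers summed to 19108 and 9891 CPM in it, above the neutrophil markers in replicate 2. Whether the class holds other cells there was not tested. Mmp8 had 62.2 and 26.9 CPM in neutrophils, against 4.04 and 12.8 CPM in macrophages, from 3 and 6 UMIs. Mmp9 had 62.2 and 62.9 CPM, from 3 and 14 UMIs, against 5.76 and 13.6 CPM in macrophages. Both genes had higher levels in the neutrophils of each library, and neither passed the adjusted test (log2 fold change 2.06, SE 1.0, adjusted p = 1 for Mmp8, and 2.65, SE 1.15, adjusted p = 1 for Mmp9, both by edgeR).

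Monocytes, of which there were 31 and 21, held 7 Mmp8 UMIs in replicate 1 (149 CPM) and 0 in replicate 2. Plaur had 84.9 and 174 CPM in them, from 4 and 3 UMIs, against 36.3 and 96.2 CPM in macrophages. Mmp12, Mmp13 and Plau had 0 UMIs in both monocyte sums, which allows up to 78.3 CPM in replicate 1 and 214 CPM in replicate 2 (exact 95% limits). The macrophage levels of all 3 genes lay under these limits in each library, so a difference was not detectable within a library at this depth. Timp2 had 1 and 0 UMIs in monocytes, against 278 and 86.6 CPM in macrophages.

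Dendritic classes also held C1q RNA, at 55.2% and 59.98% of the macrophage level in type 2 dendritic-like, 65.3% and 75.2% in mature migratory, 34.4% and 54.0% in plasmacytoid and 30.5% and 72.5% in type 1 dendritic cells, and their member levels stand beside it. In type 2 dendritic-like cells, 483 and 174 barcodes led by Mgl2, Mmp12 had 84.1 and 191 CPM. Macrophages had 58.2 and 211 CPM, with overlapping intervals in each library. The 6 type 2 dendritic markers summed to 868 and 808 CPM in them, against 273 and 541 CPM in macrophages. The 10 macrophage markers summed to 15135.5 and 8293 CPM there. A type 2 dendritic marker UMI was seen in 183 and 68 of the barcodes, and a macrophage one in 444 and 156. The name therefore follows the leading genes of the cluster, and these barcodes are not shown to be distinct from macrophages. Mature migratory dendritic cells, 26 and 27 barcodes with Ccr7 and Ccl22, had 194 and 172 CPM of Mmp14, against 105 and 123 CPM in macrophages. This was not called (log2 fold change 0.61, SE 0.44, edgeR adjusted p = 0.889). Per 1000 C1q UMIs, Mmp14 had 29.0 and 32.3 in them, against 10.3 and 17.3 in macrophages, with intervals apart in replicate 1. Plasmacytoid dendritic cells had 0 and 9 Mmp13 UMIs in 29 and 21 barcodes, and 1 barcode held 5 of the 9. Type 1 dendritic cells numbered 115 in replicate 1 and 5 in replicate 2 and entered no fit, and in replicate 1 they had 113 CPM of Timp2 and 35.4 CPM of Mmp14. Per 1000 C1q UMIs these were 36.3 of Timp2 and 11.3 of Mmp14, against 27.1 and 10.3 in macrophages, with overlapping intervals.

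Mmp9 in the type 2 dendritic-like cells of replicate 2, at 277.5 CPM, came from 4 of 174 barcodes. They held 28, 8, 6 and 3 Mmp9 UMIs, and in replicate 1 the class had 2 Mmp9 UMIs. The same 4 barcodes held 54 UMIs of Ctsk and 46 of Acp5, the genes of cathepsin K and of tartrate-resistant acid phosphatase, and 0 of C1qa. Most of these lay in 1 barcode, the one with 28 Mmp9 UMIs, which held 39 Ctsk and 39 Acp5 UMIs. The barcode with 8 Mmp9 UMIs held 0 Ctsk and 1 Acp5 UMI, so the 4 barcodes did not share 1 profile. The other 170 barcodes of the class held 0 Ctsk and 15 Acp5 UMIs. In the fit with no filter Mmp9 was called higher in this class than in macrophages (log2 fold change 3.45, adjusted p = 2.38e-07), against an adjusted p of 0.163 with the filter, in a range of 2.38e-07 to 1 over the alternatives tested. The p-value of the fit with no filter does not hold the spread of Mmp9 between the libraries.

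Macrophage RNA was also counted in other leukocyte barcodes, and some member levels have to be read beside it. Summed C1qa, C1qb and C1qc, which T and NK cells are not known to make, stood at 40.8% and 62.4% of the macrophage level in T and NK cells, and at 70.3% and 75.7% in neutrophils. In Ptprc-negative barcodes they stood at 0.709% and 0.752%, so the share differed between classes far beyond counting error, and how this RNA came into those barcodes was not tested. T and NK cells had a median depth of 1524 and 1328 UMIs, Ptprc-negative barcodes of 2021 and 2194, and macrophages of 1554 and 1121.

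Relative to C1q RNA, Mmp12 in replicate 2 had 25.1 UMIs per 1000 C1q UMIs in neutrophils and 23.4 in T and NK cells, against 29.8 in macrophages. The intervals overlapped (18.4 to 29.2 in T and NK cells, 26.3 to 33.6 in macrophages). Mmp13 had 24.3 in neutrophils and 27.0 in T and NK cells, against 23.2 in macrophages. In T and NK cells 1 barcode held 18 of 88 Mmp13 UMIs, and without it the ratio was 21.5. In replicate 2, neutrophils and T and NK cells had 135 and 103 CPM of Mmp12 and 130 and 119 CPM of Mmp13. These levels stood in about the macrophages' own ratio to C1q, and whether those cells express the enzymes was not tested. Type 2 dendritic-like cells held 14.9 and 45.0 Mmp12 UMIs per 1000 C1q UMIs, against 5.68 and 29.8 in macrophages, with intervals apart in replicate 1.

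**Figure D5:**
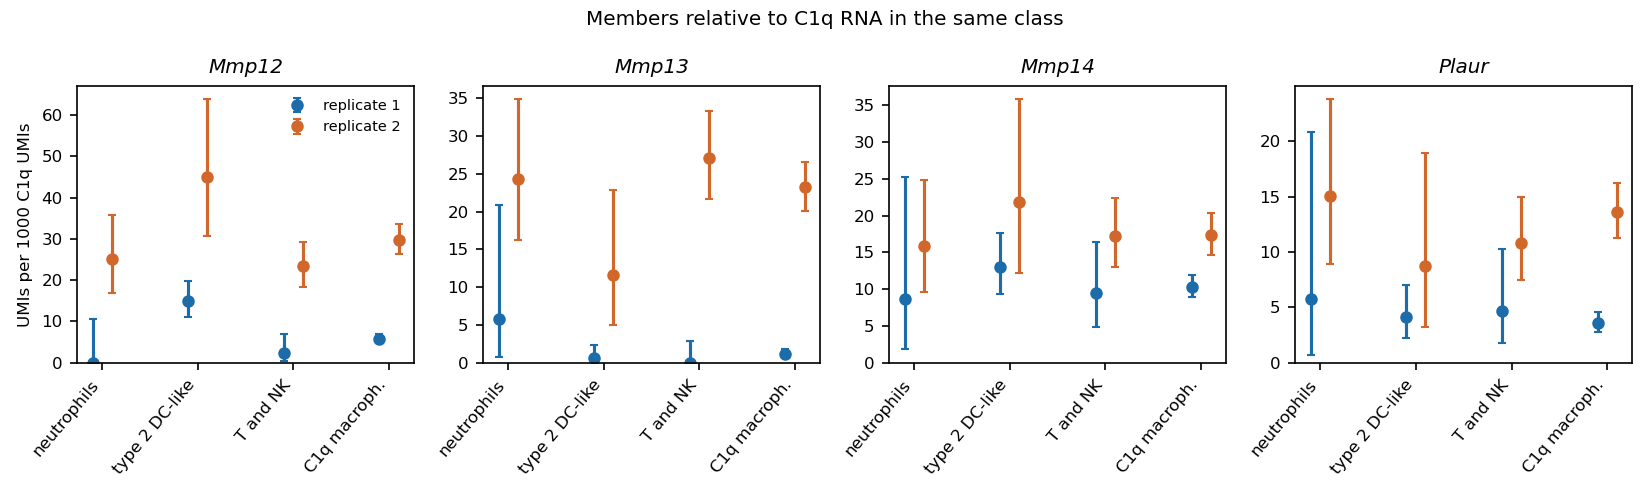
UMIs of 4 members per 1000 UMIs of C1qa, C1qb and C1qc in the same class (blue, replicate 1; orange, replicate 2), with exact 95% Poisson intervals. In replicate 2, Mmp12 stands at 25.1 in neutrophils and 23.4 in T and NK cells, against 29.8 in macrophages.

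Set against the mean of the 6 tested myeloid classes, Timp2 was called higher and Plaur lower in Ptprc-negative barcodes. Of the 7 members that passed the filter, these and Mmp14 were the 3 that had a UMI in every class averaged. For Mmp8, Mmp9, Mmp12, Mmp13, Timp1 and Plau a class with 0 UMIs in both libraries left the mean without an estimate. Over all genes tested, 31% were called higher and 21.6% lower, 52.6% in all, and 312 of the 2200 genes called also had a class at 0. The log2 fold change of Timp2 was 3.52 (edgeR adjusted p = 2.74e-11) and that of Plaur was -1.14 (adjusted p = 0.0163). Mmp14 had 0.13 (adjusted p = 0.813). Without the Ptprc-negative sum of replicate 1, Plaur had -0.54 (adjusted p = 0.23, range over the alternatives tested 0.000826 to 0.23) and was not called. This comparison shares its Ptprc-negative and macrophage sums with the first and is no separate evidence.

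The wider list of 50 genes held other metalloproteinases, inhibitors, plasminogen genes, Adam and Adamts genes and partners. Of these, 49 were matched, 41 had a UMI in kept cells and 17 could be tested. In Ptprc-negative barcodes 4 were higher, 4 were lower and 9 were not called against macrophages (edgeR). Over all genes tested in this comparison, 23.8% were called higher and 28.9% lower, so such calls are common for any gene list. The higher ones were S100a10 (1.79) and Anxa2 (1.72), whose products bind plasminogen activators or plasminogen at the cell surface, Serpinb6a (1.78), a serine protease inhibitor gene, and Bsg (1.11), whose product induces metalloproteinases, each value a log2 fold change. The lower ones were Itgam (-6.21), an integrin chain of myeloid cells, the membrane-type enzyme gene Mmp25 (-4.21) and the membrane protease genes Adam8 (-2.24) and Adam15 (-1.56). Itgam is a leukocyte gene and its direction follows from the classes compared. The list's median log2 fold change was -0.19, against 0.033 over all genes tested.

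Genes with few UMIs could not be tested but had a plain distribution. Mmp2, the gelatinase A gene, had 56.2 and 13.7 CPM in Ptprc-negative barcodes, against 9.22 and 3.21 CPM in macrophages. Timp3, an inhibitor gene whose product binds matrix, had 1.49 and 44.5 CPM in Ptprc-negative barcodes, against 0 and 1.60 CPM in macrophages. Plat, the tissue plasminogen activator gene, had 2.98 and 46.3 CPM in Ptprc-negative barcodes, against 0 and 0.802 CPM in macrophages. Timp3 and Plat in Ptprc-negative barcodes were seen mostly in replicate 2, whereas Mmp2 was higher in replicate 1.

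Over the 16 sums of the 8 fitted classes, 6 of the members that passed the filter are given with the genes of most similar pattern, described by Pearson's r of log2(CPM + 5), without a test and with sums that share libraries. Mmp13 was nearest to Gbp2b (0.921), Blvrb and Cyfip2, and Mmp12 to Mgl2 (0.85), Klrb1b and Tmem50b. Mmp14 was nearest to Ptpmt1 (0.934), Anxa4 and Dcp2. Timp2 was nearest to 1110065P20Rik (0.918), Hmgn1 and Cdk4. Mmp9 had no close neighbour, with 0.641 to Pbld1 at most, followed by Uqcr11 and Tars, and Mmp8 reached 0.745 to Hk2, followed by Adgre5 and Mrpl33. Between members, the r of Mmp12 and Mmp13 was 0.676 and that of Timp2 and Plaur was -0.643.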

How the data were processed

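Immune cells sorted from MC38 tumours were profiled in 2 libraries. The deposited values are UMI counts of each gene in each barcode, whole numbers with no scaling, per the file headers. Cell Ranger 6.0.1 and Seurat 4.0.1 are listed in the submitters' processing notes with the build mm10, and the annotation is not given in the sources used here. All members and the gene lists were chosen with earlier results of these data known.

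Barcodes were kept at 300 or more genes and under 10% mitochondrial UMIs. Scrublet called 10 and 36 doublets (0.419% and 1.27%), which were left out, so doublets of unlike cells can remain. Cells of both libraries were clustered jointly in scanpy 1.11.5, by leidenalg 0.10.2 (2000 variable genes without the members, 30 components, 15 neighbours, resolution 1, no batch correction), and 17 clusters were named by hand from the marker lists. Ptprc-negative barcodes lie outside leukocyte clusters and have 0 Ptprc and 0 Tyrobp UMIs. Genes expressed along with the clustering genes can differ between classes by construction.

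UMIs were summed by class within each library, over the 8 classes that had 20 or more cells in each. A quasi-likelihood test of edgeR 4.0.16 (R 4.3.3) was fitted to the 16 sums (filterByExpr, TMM scaling, a block for the library, 7 residual degrees of freedom), with Benjamini-Hochberg adjustment and a threshold of 0.05. Classes of 1 library come from the same cells and preparation, so they are paired by their replicate number. In the filtered fits the p-values measure how far class differences varied between 2 libraries, with the spread partly shared over genes. In the main fit with no filter the spread was fully shared, so a gene's own spread between libraries does not enter its p-value. Technical differences, sex and animal cannot be told apart in these p-values. DESeq2 1.42.0 was an alternative. The fit was tested on simulated data. Intervals of counts are exact Poisson, those of ratios exact binomial, at 95%, and cover counting error only.

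All 9 members are named. From the wider list every gene that passed the test was named, up to 10, and the untested Mmp2, Timp3 and Plat and the chromosome 9 neighbours were chosen after their values were seen, as were the Ctsk and Acp5 counts and the interferon cluster. For each member that passed the filter the 3 genes of highest correlation were named, except for Plaur, whose result is not reported here.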

Additional observations from a re-analysis of the deposited data

How the results depend on the processing

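Against C1q macrophages, 2201 genes were called in Ptprc-negative barcodes. The count was 4362 with no filter on low counts, 1317 with cells of at least 500 genes and under 5% mitochondrial UMIs and 1044 with cells thinned to 800 UMIs, and it ran from 1638 to 2589 when 1 sum was left out. Against the mean of the myeloid classes, with 2200 called, these gave 4813, 1399 and 1026, a fit of the compared classes alone gave 1364, and leaving out 1 sum gave 2175 to 2365. Of the 4813, 2614 had 0 UMIs in a class averaged. The filter and the thinning changed how many genes were tested. In neutrophils, with 12 called, DESeq2 gave 6, no replicate block 7, the compared classes alone 27, the stricter cells 7 and thinning 5, and leaving out 1 sum gave 7 to 14. In type 2 dendritic-like cells, with 2 called, DESeq2 and no replicate block gave 0, no filter 27, the compared classes alone 38, the stricter cells 9, resolution 2 gave 7 and thinning 6. In mature migratory dendritic cells, with 22 called, DESeq2 gave 44, no replicate block 13, the compared classes alone 66 and thinning 9. In plasmacytoid dendritic cells, with 51 called, no filter gave 82, no replicate block 24, the compared classes alone 117, the stricter cells 24 and thinning 25. In monocytes, with 52 called, no replicate block gave 8. The causes were not tested.

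Between Ptprc-negative barcodes and macrophages, Timp2, Mmp12 and Mmp13 were called in each of 17 alternatives and Timp1 and Plau in each of 11, while Mmp9, Mmp8 and Plaur lost the call in those given above. The block changed the call of Plaur against macrophages and, against the mean of the myeloid classes, of Plaur (adjusted p = 0.157), which also lost it with no filter (adjusted p = 0.085). Directions turned in 11 tested values of members that were not called. Against macrophages in neutrophils, Mmp13 was at 0.17 with DESeq2, 0.28 with no replicate block, 0.084 at resolution 2 and from -0.45 to 2.10 when 1 neutrophil sum was left out, against -0.15, and Plaur was at 0.077 with no replicate block, 0.0066 with macrophages by 5 or more C1q UMIs and from -0.31 to 0.35 when 1 neutrophil sum was left out, against -0.21. With the stricter cells Mmp14 was at -0.29 in mature migratory and Mmp13 at -0.022 in plasmacytoid dendritic cells. In plasmacytoid dendritic cells Mmp9 was at -0.0015 with no filter and Mmp14 at 0.072 after thinning.

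Leaving out a whole library left no residual degrees of freedom, so its values carry no test, and a class at 0 UMIs in the remaining library was given none. Directions turned in 7 of these 66 values. Without replicate 1, Mmp12 was at -0.022 (against 0.40) and Mmp8 at 0.062 (against -0.56) in type 2 dendritic-like cells, Timp2 at 0.26 (against -0.26) in neutrophils and Mmp14 at -0.024 (against 0.13) in Ptprc-negative barcodes against the mean of the myeloid classes. Without replicate 2, Mmp9 was at -0.47 (against 3.58) in type 2 dendritic-like cells, and Mmp13 at 1.88 (against -0.15) and Plaur at 0.25 (against -0.21) in neutrophils. Monocytes did not remain a class at resolution 2, so neither their comparison nor that with the mean of the myeloid classes was run there. TMM and RLE size factors, both within edgeR, put the median log2 fold change of all genes against the mean of the myeloid classes at 0.247 and 0.219. In the small classes 1 UMI is worth many CPM, which limits what can be seen there.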

Other observations

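Pairs of members were counted in the same barcodes as a description. In Ptprc-negative barcodes, 57 of the 75 with a Mmp14 UMI in replicate 1 and 113 of the 162 in replicate 2 also held a Timp2 UMI. In macrophages these were 54 of 142 and 12 of 129. Of all barcodes, 405 of 627 and 556 of 960 Ptprc-negative ones held a Timp2 UMI, and 275 of 816 and 91 of 888 macrophages. The overlap has to be read beside these shares. In macrophages, Mmp12 and Mmp13 shared 31 of the 888 barcodes in replicate 2, of 144 with a Mmp12 UMI and 136 with a Mmp13 UMI. In replicate 1 they shared 3 of 816, of 42 and 13. Barcodes with more UMIs are likelier to hold both genes, and this was not tested.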
